A study of Mus musculus with 15 samples.

Results

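Glycine is an inhibitory transmitter in the spinal cord and brainstem and a co-agonist of NMDA receptors in the forebrain. The 8 genes described here encode the machinery around it: the transporters GlyT2 (Slc6a5) and GlyT1 (Slc6a9), the receptor subunits alpha1 (Glra1), alpha2 (Glra2), alpha3 (Glra3) and beta (Glrb), the scaffold gephyrin (Gphn) and the glycine-degrading enzyme Gldc. They were picked by symbol, with their fold changes between the genotypes in these libraries already known, and all 8 were found among the 22524 gene rows and passed the filter on low counts. Their differences between the genotypes are therefore given as a description: the text says which passed the threshold of the fit over all genes, prints no p for them and supports nothing with it.

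RNA was sequenced from 15 female C57BL/6 mice aged 18 months, 7 that carried 1 Rps9 D95N allele beside a wild-type one (D95N; Rps9 is a small-subunit ribosomal protein) against 8 wild-type littermates (WT). The series design names brain cortex and the tissue field of the labels names skeletal muscle. Summed over 8 pan-neuronal markers the libraries held 8021 to 8401 CPM (reads scaled to a common library size) in D95N and 7997 to 8535 CPM in WT. Summed over 8 skeletal muscle markers they held 7.24 to 11.3 CPM in D95N and 7.85 to 31.8 CPM in WT, the highest in WT 19. Libraries are named by genotype and animal number. Total counts ran from 23349381 to 34587082. The labels name neither batch nor litter nor day.

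Glycinergic neurons take released glycine back up through GlyT2 and refill vesicles from it, so Slc6a5 serves as a marker of these cells, whose bodies lie mainly in the brainstem and spinal cord. GlyT1, carried mainly by astrocytes and by some glutamatergic neurons, sets the level of glycine outside cells, and the glycine cleavage system in astrocyte mitochondria breaks glycine down. Glycine receptors are chloride channels built of alpha and beta subunits. The beta subunit binds gephyrin, which holds receptors at inhibitory synapses, and the alpha2 form, high early in life, gives way to alpha1 in the maturing brainstem and spinal cord.

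The stretches just upstream of Slc6a5, Glra2 and Gldc are shown because these genes, of those with a promoter sequence in RefSeq (GRCm38.p6), had the widest gaps between the genotypes. Each stops before the first annotated start in RefSeq and GENCODE M21. Capitals mark matches, on either strand, to 5 motifs: the cAMP response element (TGACGTCA), AP-1 (TGANTCA), EGR (GCGNGGGCG), the GC box (GGGCGG) and the TATA box (TATAAA).
Slc6a5, chr7:49910049-49910145, plus strand: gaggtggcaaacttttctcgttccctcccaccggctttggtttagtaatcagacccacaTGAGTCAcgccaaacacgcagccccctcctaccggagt
Glra2, chrX:165327394-165327643, minus strand: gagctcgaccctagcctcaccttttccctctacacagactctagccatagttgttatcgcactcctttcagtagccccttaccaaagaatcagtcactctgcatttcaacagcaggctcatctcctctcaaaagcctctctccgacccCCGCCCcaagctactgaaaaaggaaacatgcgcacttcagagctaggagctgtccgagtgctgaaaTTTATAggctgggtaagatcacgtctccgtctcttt
Gldc, chr19:30175442-30175691, minus strand: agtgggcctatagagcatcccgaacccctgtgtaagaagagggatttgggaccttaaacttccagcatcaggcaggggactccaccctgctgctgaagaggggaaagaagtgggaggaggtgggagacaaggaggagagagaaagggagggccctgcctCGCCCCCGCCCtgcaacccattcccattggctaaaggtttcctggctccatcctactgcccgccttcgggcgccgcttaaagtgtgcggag
The Slc6a5 stretch held 1 AP-1 match, which 2.40% of all 32851 promoter windows of the same 97 bases and position also hold. The Glra2 stretch held 1 GC box, found in 32.7% of windows of 250 bases, and 1 TATA box, found in 12.4%. The Gldc stretch held 1 EGR match, found in 4.70% of windows, which overlaps its 1 GC box. GC content was 55.7% for Slc6a5, 50.4% for Glra2 and 59.6% for Gldc. These are matches of letters only and say nothing of whether a factor binds there.

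Slc6a5 (ENSMUSG00000039728), on chromosome 7 from 49910146 to 49963856 of GRCm38, encodes GlyT2 and was far higher in most D95N libraries. Its level in D95N had a lowest value of 4.38 CPM in D95N 41, a median of 11.4 CPM and a highest value of 135 CPM in D95N 4, against 0.978 CPM in WT 24, a median of 2.48 CPM and 4.67 CPM in WT 16 as the WT values. Thus 6 of 7 D95N libraries lay above all 8 WT libraries, and D95N 41 lay within the WT range. D95N 4 and D95N 44, at 94.5 CPM, stood well above D95N 28, the next at 19.1 CPM. The counts behind these levels were 137 to 4235 reads in D95N and 30 to 149 reads in WT.

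Mean Slc6a5 levels were 40.6 ± 52.3 CPM in D95N (SD, n = 7) and 2.60 ± 1.35 CPM in WT (SD, n = 8). The log2 fold change fitted with edgeR was 3.98 ± 0.71 (SE), or 15.8-fold, while the ratio of the medians was 4.62. Without D95N 4 the log2 fold change was 3.27, and without D95N 4 and D95N 44 together it was 2.06 ± 0.36. The spread differed too: the highest D95N library stood 30.9-fold above the lowest, and the highest WT library 4.78-fold.

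Slc6a9 (ENSMUSG00000028542), on chromosome 4 from 117834506 to 117875198, encodes GlyT1 and differed little. D95N libraries ran from 60.9 CPM in D95N 50 over a median of 67.9 CPM to 75.5 CPM in D95N 42, and WT libraries from 66.5 CPM over a median of 71.1 CPM to 78.6 CPM. In D95N 3 of 7 libraries lay below all WT libraries and the other 4 within their range. The log2 fold change was -0.08 ± 0.05 (SE). Slc6a9 shares 1429 of 5141 exon bases with Ccdc24 on the opposite strand. The strand setting of the counting is unstated, so the Slc6a9 count may be too high or too low in the shared bases. Ccdc24 was counted at 1.09 ± 0.372 CPM in D95N and 1.28 ± 0.348 CPM in WT.

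Set against each other per kilobase of exon, Slc6a5 stood above Slc6a9 in D95N 4 and nearly level with it in D95N 44. Without division by exon length Slc6a5 was higher in both, at 135 against 72.9 CPM and 94.5 against 67.9 CPM. The order in D95N 44 thus depends on the exon lengths used. Slc6a5 made up 4.14% to 57.0% of the summed level of both transporters per kilobase in D95N, the highest in D95N 4 and then 49.8% in D95N 44, against 0.944% to 4.77% in WT. In D95N 41 the share lay within the WT range. The plot of each gene by library shows the wide scatter of Slc6a5 beside the narrow one of Slc6a9.

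**Figure D1:**
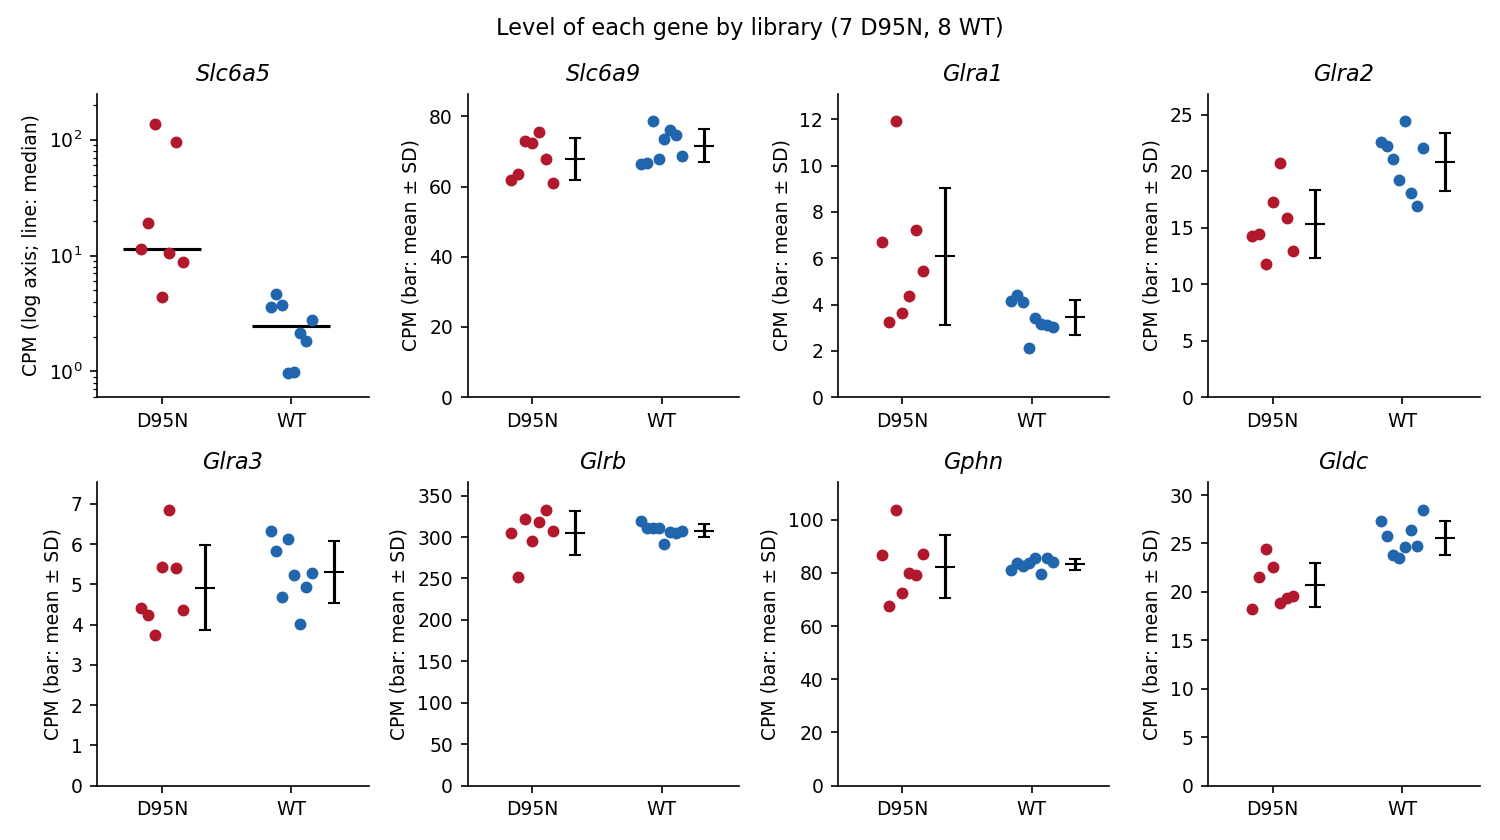
CPM of the 8 genes in each library, 7 D95N (red) and 8 WT (blue); Slc6a5 is on a log axis with the median as a line, the others on linear axes from 0 with mean ± SD. Slc6a5 reaches 135 and 94.5 CPM in D95N 4 and D95N 44 and at most 4.67 CPM in WT, with D95N 41, at 4.38 CPM, within the WT range. The ranges of Glrb and Gphn also overlap between the genotypes.

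Glra1 (ENSMUSG00000000263), on chromosome 11 from 55514238 to 55608198 and sharing 141 exon bases with an antisense gene that has no row, encodes the alpha1 subunit of adult synaptic receptors and was higher in some D95N libraries. D95N levels ran from 3.25 CPM in D95N 28 over a median of 5.43 CPM to 11.9 CPM in D95N 4, and WT levels from 2.13 CPM in WT 24 over a median of 3.30 CPM to 4.42 CPM in WT 16. D95N 4, 44, 21 and 50 lay above all WT libraries, and D95N 28, 41 and 42 within their range. The log2 fold change was 0.83 ± 0.24 (SE), or 1.78-fold. Without D95N 4 and D95N 44 together it was 0.45 ± 0.19 and no longer passed the threshold of the fit.

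Glra2 (ENSMUSG00000018589), on chromosome X from 165129017 to 165327393, encodes the alpha2 subunit and was lower. D95N levels ran from 11.8 CPM in D95N 4 over a median of 14.4 CPM to 20.8 CPM in D95N 42, against 16.9 CPM in WT 43, a median of 21.6 CPM and 24.4 CPM in WT 30. In D95N 5 of 7 libraries lay below all WT libraries, with D95N 41 and D95N 42 inside their range. This was 0.737-fold, a log2 fold change of -0.44 ± 0.11 (SE).

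Glra3 (ENSMUSG00000038257), on chromosome 8 from 55940460 to 56130070, encodes the alpha3 subunit. It stood at 4.92 ± 1.06 CPM in D95N (SD, n = 7) and 5.31 ± 0.772 CPM in WT (SD, n = 8), a log2 fold change of -0.11 ± 0.13 (SE), which is less than its error. Most D95N libraries, 5 of 7, lay within the WT range. Glra4, the remaining alpha subunit gene of the mouse, was near the floor at 0.195 ± 0.108 CPM in D95N and 0.394 ± 0.128 CPM in WT, with 4 of 7 D95N libraries below all WT libraries. It was called lower (edgeR, log2 fold change -0.97, adjusted p = 0.0324), and is named for its family, not as one of the 8.

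The balance between the alpha subunits differed between the genotypes, and it does not depend on how libraries are scaled. Glra1 and Glra2 were picked with their opposite changes known, so their ratio is a description and supports nothing. How many other gene pairs split the libraries in this way was not counted. Per read, Glra1 had 0.211 to 1.01 times the level of Glra2 in D95N, with a median of 0.42, against 0.111 to 0.199 times in WT, with a median of 0.179. All 7 D95N libraries lay above all 8 WT libraries, D95N 41 and 42, at the low end, by a narrow margin. Per kilobase, Glra1 made up 31.2% ± 12.5 of the summed alpha subunits in D95N and 16.5% ± 2.75 in WT (SD). In D95N 4 it made up 54.4%, above Glra2 at 41.1%, while Glra2 was the leading alpha subunit in each of the other 14 libraries. Glra3 kept 6.79% ± 1.21 in D95N and 6.74% ± 1.02 in WT.

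Glrb (ENSMUSG00000028020), on chromosome 3 from 80843599 to 80913660, encodes the beta subunit and was the most abundant of the 8. Its mean was 304 ± 26.6 CPM in D95N (SD, n = 7) and 308 ± 8.05 CPM in WT (SD, n = 8). The log2 fold change, -0.01 ± 0.05 (SE), was smaller than its error. The lowest library was D95N 28 at 251 CPM and the highest D95N 44 at 333 CPM, both outside the WT range of 291 to 319 CPM. Per kilobase, Glrb stood 8.33 ± 0.71 times above the summed alpha subunits in D95N and 7.77 ± 0.974 times in WT (SD).

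Gphn (ENSMUSG00000047454), on chromosome 12 from 78226379 to 78684772, encodes gephyrin, the scaffold under glycine and many GABA-A receptors, which also makes the molybdenum cofactor. Its mean was 82.4 ± 11.8 CPM in D95N (SD, n = 7) and 83.3 ± 2.09 CPM in WT (SD, n = 8), and the log2 fold change of -0.01 ± 0.07 (SE) was smaller than its error. The D95N libraries fell on both sides of the narrow WT range of 79.6 to 85.5 CPM: 3 lay above all WT libraries, D95N 4 highest at 104 CPM, and 3 below, D95N 28 lowest at 67.6 CPM. The coefficient of variation was 14.3% in D95N and 2.51% in WT. All 8 genes had the larger coefficient of variation in D95N, as did 83.0% of the 14989 tested genes.

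Gldc (ENSMUSG00000024827), on chromosome 19 from 30098447 to 30175429, encodes the decarboxylase that opens the glycine cleavage reaction and was lower in D95N. D95N levels ran from 18.3 CPM in D95N 21 over a median of 19.6 CPM to 24.5 CPM in D95N 4, and WT levels from 23.5 CPM in WT 24 over a median of 25.2 CPM to 28.5 CPM in WT 8. In D95N 6 of 7 libraries lay below all WT libraries, and D95N 4 lay within their range. On the log2 scale the fold change was -0.31 ± 0.06 (SE), or 0.809-fold. In bulk RNA, fewer cells of a type and less RNA per cell cannot be told apart.

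Of the 8 genes, 2 (Slc6a5 and Glra1) passed an adjusted p of 0.05 as higher in D95N and 2 (Glra2 and Gldc) as lower. Over all 14989 tested genes 15.2% passed as higher and 11.6% as lower (26.8% in all; DESeq2 called 27.4% of 16406), and since the 8 were chosen on this contrast nothing is read from their count. None of the 8 had all 7 D95N libraries on one side of all 8 WT libraries, which 1.81% of tested genes showed as higher and 1.47% as lower. The median log2 fold change was -0.05 over the 8 genes and -0.01 over all tested genes.

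Per kilobase of merged exons the order of levels in WT was Glrb (66.1 ± 1.73 CPM per kb), Gphn (22.2 ± 0.558), Slc6a9 (13.9 ± 0.918), Glra2 (6.61 ± 0.807), Gldc (4.20 ± 0.285), Glra1 (1.43 ± 0.312), Glra3 (0.576 ± 0.0839) and Slc6a5 (0.361 ± 0.188; SD, n = 8). The ranges of neighbours in that order did not overlap except for Glra3 and Slc6a5. In D95N the mean of Slc6a5, 5.64 ± 7.26 CPM per kb (SD, n = 7), came between Slc6a9 and Glra2, and its range overlapped those of both. Slc6a5 stood above Glra2 per kilobase in 2 of 7 D95N libraries.

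**Figure D2:**
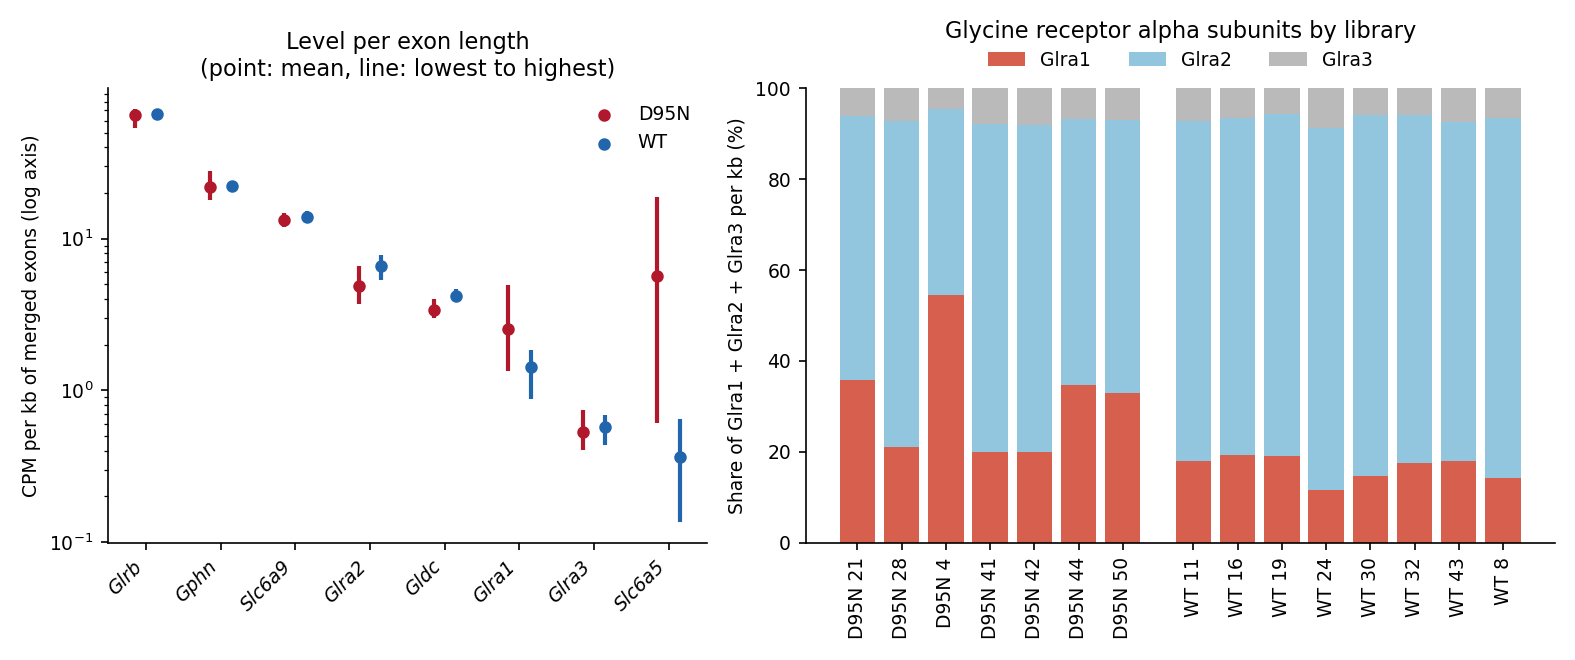
Left, CPM per kilobase of merged exons on a log axis for the 8 genes, ordered by WT, D95N red and WT blue, points for means and lines from the lowest to the highest library; right, share of each alpha subunit in the summed alpha level per kilobase, 1 bar a library. Glra1 takes 19.9% to 54.4% in D95N and 11.5% to 19.2% in WT.

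Slc6a5 is mainly a brainstem and spinal cord gene, so 26 genes listed for those regions were looked at library by library. Not all of the 26 are confined to those regions. Their summed level was 8.21 to 15.9 CPM in D95N and 7.79 to 18.4 CPM in WT. Of the 5 that passed the filter none passed the edgeR test in either direction, and none had an unadjusted p under 0.05 (DESeq2 also called none, of 15). Slc18a3 and Chat, the vesicular transporter and the enzyme of acetylcholine, were the most abundant of the 5, at 2.86 ± 0.923 and 4.34 ± 1.07 CPM in D95N and 3.07 ± 1.13 and 4.98 ± 1.23 CPM in WT. Only 4 of the 26 genes had a mean of at least 1 CPM, and Slc18a3 and Chat weigh most in the sum. The sum therefore says little about brainstem or spinal cord RNA.

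The 16 Hox genes of that list, a subset taken after its values were seen, pattern the hindbrain and spinal cord. In WT the 4 libraries with the most Slc6a5, at 2.80 to 4.67 CPM, were also the 4 with the most summed Hox RNA, at 1.81 to 3.73 CPM. The other 4 WT libraries had 0.978 to 2.15 CPM of Slc6a5 and 0.144 to 1.31 CPM of Hox RNA. In D95N the order differed at the high end. D95N 41 was lowest of the D95N libraries for both, at 4.38 CPM of Slc6a5 and 0.0639 CPM of Hox RNA. D95N 4 and D95N 44, highest for Slc6a5, had 0.671 and 0.180 CPM of Hox RNA, from 21 and 6 reads. In them 11 and 14 of the 26 listed genes were at 0. The other D95N libraries had 11 (D95N 21), 15 (D95N 28 and D95N 41), 5 (D95N 42) and 8 (D95N 50) at 0. WT 24 had 15 and the other WT libraries 3 to 9, so these numbers do not set D95N 4 and D95N 44 apart. D95N 42, with the most Hox RNA of the D95N libraries at 3.66 CPM, had 10.6 CPM of Slc6a5.

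Some other cell markers also differed between the genotypes. Whether their sums follow Slc6a5 from library to library was not tested. The sum of 10 cortical interneuron genes was 1335 to 2019 CPM in D95N and 1332 to 1531 CPM in WT. In D95N 21, 28, 4, 44 and 50 it was 1732 CPM or more, and in D95N 41 and 42 it lay within the WT range. Of these 10 genes 5 rose, among them Npy, a neuropeptide, at 2.94-fold and Slc32a1 (edgeR, adjusted p = 0.00054 and 0.00503), and Vip and Lamp5 fell. Without D95N 4 and D95N 44 together 2 of the 10 were called higher, and without D95N 21, 28 or 44 alone 3 were. The median log2 fold change of the list was 0.14 both with all libraries and without D95N 4 and D95N 44, and 5 genes were higher at an unadjusted p under 0.05 in each of these settings. The sum of 18 genes induced by neuronal activity was 791 to 2425 CPM in D95N and 494 to 931 CPM in WT, with D95N 42 within the WT range. Of 9 blood cell genes 8 fell. Without D95N 4 and D95N 44 together none passed the edgeR adjusted test, while 9 of 9 were lower at an unadjusted p under 0.05 and the median log2 fold change was -1.23, against -1.16 with all libraries. Without D95N 28, 4, 41 or 44 alone 5 passed, and without WT 32 alone 4. Of 11 meningeal fibroblast genes 5 fell. These lists had sums of 37.5 to 149 and 84.6 to 184 CPM in D95N and 82.1 to 314 and 158 to 219 CPM in WT. The cerebellar sum was 66.0 to 97.0 CPM in D95N and 75.4 to 180 CPM in WT, highest in WT 19. Their part in the levels of the glycine genes was not tested.

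**Figure D3:**
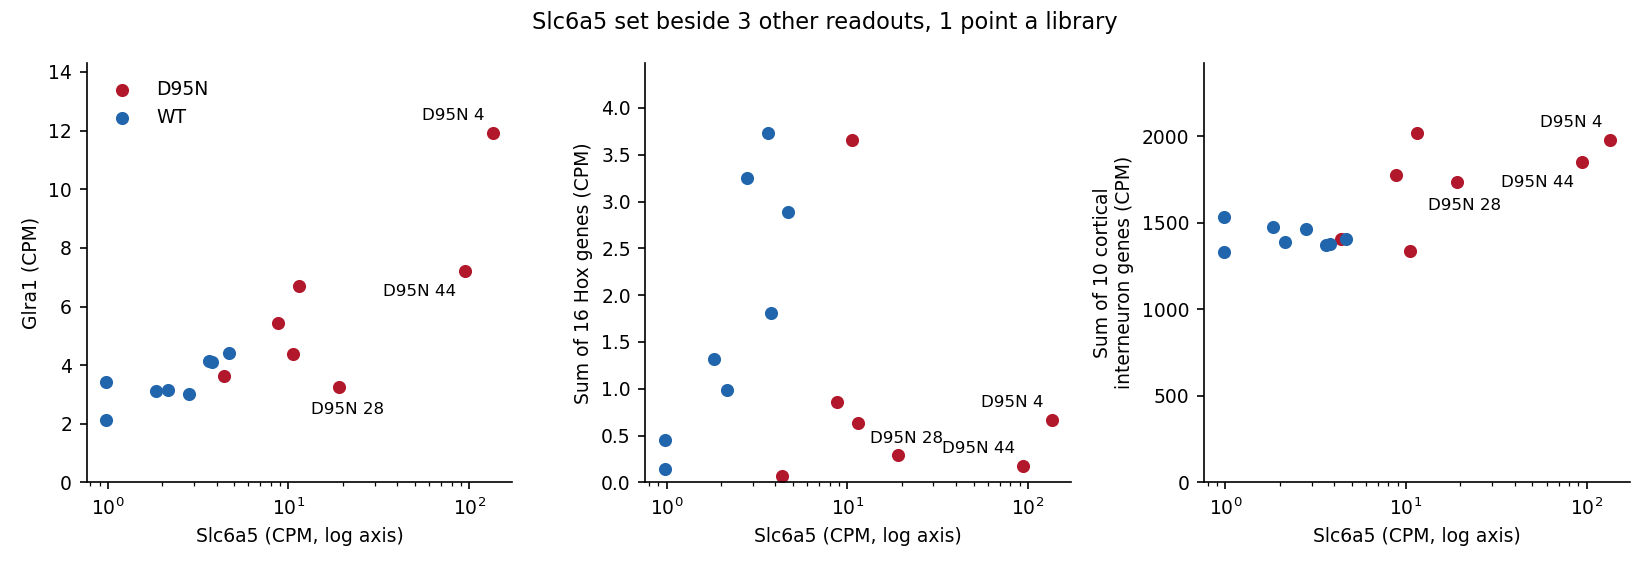
Slc6a5 in CPM on a log axis against Glra1 (left), the sum of 16 Hox genes (middle) and the sum of 10 cortical interneuron genes (right), each in CPM, 1 point a library, D95N red and WT blue. D95N 4 and D95N 44 have 135 and 94.5 CPM of Slc6a5 with 0.671 and 0.180 CPM of Hox RNA, and D95N 28 has 19.1 CPM of Slc6a5 with Glra1 at 3.25 CPM, within the WT range.

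Over the 15 libraries the genes whose log2 level was most like that of Slc6a5, among 13819 of at least 1 CPM, were Atp6v1c1, a subunit of the proton pump that acidifies vesicles (Pearson r = 0.93, Spearman rho = 0.94), Bag1, a co-chaperone (0.93 and 0.82), Tdrd9, a germline helicase (0.92 and 0.82), Tfrc, the transferrin receptor (0.92 and 0.89), and Slc25a4, a mitochondrial ADP/ATP carrier (0.91 and 0.87). Without D95N 4 and D95N 44, over 13 libraries, r was 0.84, 0.84, 0.77, 0.84 and 0.80 in the same order. These values hold the difference between the genotypes and are given as a description. Glra1 ranked 53rd at r = 0.85 and rho = 0.80, with r = 0.64 over the 13 libraries.

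Gldc works in a complex with Amt, Gcsh and Dld, the aminomethyltransferase, the hydrogen carrier and the shared dehydrogenase, named here for that place. Amt stood at 17.3 ± 1.41 CPM in D95N and 18.96 ± 0.774 CPM in WT (edgeR, log2 fold change -0.13, adjusted p = 0.0671). Gcsh stood at 38.8 ± 1.67 CPM in D95N and 38.3 ± 2.10 CPM in WT, and Dld at 160.2 ± 7.93 CPM in D95N and 153 ± 6.16 CPM in WT. Of 12 tested genes of glycine cleavage and one-carbon metabolism 2 fell, Mthfd1, a folate enzyme, and Gatm, which starts creatine synthesis from glycine (edgeR, log2 fold changes -0.10 and -0.19, adjusted p = 0.0328 and 0.033). None rose, and none had an unadjusted p under 0.05 in that direction (DESeq2 also called none higher). The Gatm call was lost without D95N 28 (edgeR, adjusted p = 0.0641) or without WT 16, 19 or 24, at log2 fold changes of -0.17 to -0.19. The Mthfd1 call was lost without any of 10 single libraries, while its log2 fold change stayed between -0.12 and -0.09. The count of 2 became 0 without WT 19 or WT 24, 4 without D95N 42, and 1 without D95N 4, 44 or 50 or WT 11, 16, 30, 43 or 8.

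Serine is the source of glycine and of D-serine, the other NMDA receptor co-agonist. Of 9 tested genes of this pathway 2 rose and 3 fell. Scaling by library totals left 2 higher and 6 lower, and upper-quartile scaling 2 higher and 5 lower. Phgdh, the opening enzyme of serine synthesis, fell to 13.01 ± 1.15 CPM in D95N, against 16.27 ± 1.123 CPM in WT, with all 7 D95N libraries below all 8 WT libraries (edgeR, adjusted p = 0.00146). The neutral amino acid carriers Slc1a4 and Slc1a5 rose 1.24-fold and 1.48-fold (edgeR, adjusted p = 0.00423 and 0.00196).

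Of 10 tested transporters that carry glycine among other substrates 2 rose and 5 fell. Without any one of D95N 21, 28, 4 or 41 or WT 19, 24, 30 or 32, 3 were called lower, and 5 stayed lower at an unadjusted p under 0.05. Slc32a1, which loads GABA and glycine into synaptic vesicles, rose to 190 ± 29.3 CPM in D95N, against 148 ± 14.0 CPM in WT (SD; edgeR, log2 fold change 0.36 ± 0.08, adjusted p = 0.00503). Slc36a1, a lysosomal amino acid exporter, rose 1.28-fold between the means, with 7 of 7 D95N libraries above all WT libraries. Slc7a10, which moves D-serine and glycine across the membrane, fell to 24.1 ± 1.59 CPM in D95N, against 27.98 ± 1.82 CPM in WT (edgeR, adjusted p = 0.00568). Slc38a1 fell to 0.834-fold, and Slc6a20a, a proline and glycine carrier, to 0.609-fold, below all WT libraries in 7 of 7.

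Slc6a5 and Slc6a9 belong to the sodium-coupled SLC6 family, of which 13 other members were tested. Of these 3 rose and 6 fell. With D95N 4 and D95N 44 both left out 3 were called lower and 5 were lower at an unadjusted p under 0.05 (7 with all libraries), and the median log2 fold change was -0.14, against -0.15 with all libraries. Slc6a8, the creatine transporter, rose 1.34-fold, and Slc6a11 and Slc6a13, which take up GABA, fell to 0.737-fold and 0.499-fold (edgeR, adjusted p = 0.000459, 0.000444 and 0.00064). Slc6a13 is also in the meningeal list.

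At the inhibitory postsynapse 4 of 12 tested partners rose and 4 fell. Scaling by library totals gave 2 and 5, upper-quartile scaling 2 and 4, and leaving out D95N 4 and D95N 44 together 2 and 3. Without D95N 28, 44 or 50 or WT 11 or 32 alone the calls were also 2 and 3. At an unadjusted p under 0.05, 5 were higher and 5 lower both with all libraries and without D95N 4 and D95N 44 together. Iqsec3, a gephyrin-binding exchange factor, rose to 306 ± 47.1 CPM in D95N, against 213 ± 7.42 CPM in WT, above all WT libraries in 7 of 7 (edgeR, adjusted p = 0.000305). Insyn1, another gephyrin partner, rose 1.28-fold. Nlgn3, an adhesion protein, fell to 111 ± 6.59 CPM in D95N, against 124 ± 2.67 CPM in WT, below all WT libraries in 7 of 7 (edgeR, adjusted p = 0.00339). Gphn itself, in the same libraries, had a log2 fold change of -0.01.

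Over these lists together 11 of 60 tested genes rose and 18 fell, against 2272 higher and 1744 lower of all 14989, or 26.8% in both directions (library totals gave 9 and 24 of the 60 and 1808 and 2536 of all, upper-quartile factors 9 and 21 and 1926 and 2351). The median log2 fold change was -0.11 over the lists and -0.01 over all genes. Because the lists were chosen with earlier results of these data known, nothing is read from these counts or medians. Astrocytes carry GlyT1 and Gldc, and of 12 astrocyte genes 5 fell and 1 rose. Without any one of D95N 44 or 50 or WT 11, 16, 19, 30, 32 or 43, 3 were called lower, and 5 stayed lower at an unadjusted p under 0.05. Leaving out D95N 4 and D95N 44 together left 3 called lower, with a median log2 fold change of -0.13, against -0.11 with all libraries. Slc1a3 and Slc4a4 fell to 0.857-fold and 0.838-fold, Gja1 to 0.786-fold, and Gfap rose 1.82-fold. The sum of the 12 was 6501 to 7426 CPM in D95N and 6981 to 7409 CPM in WT, and its part in the level of Gldc was not tested.

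**Figure D4:**
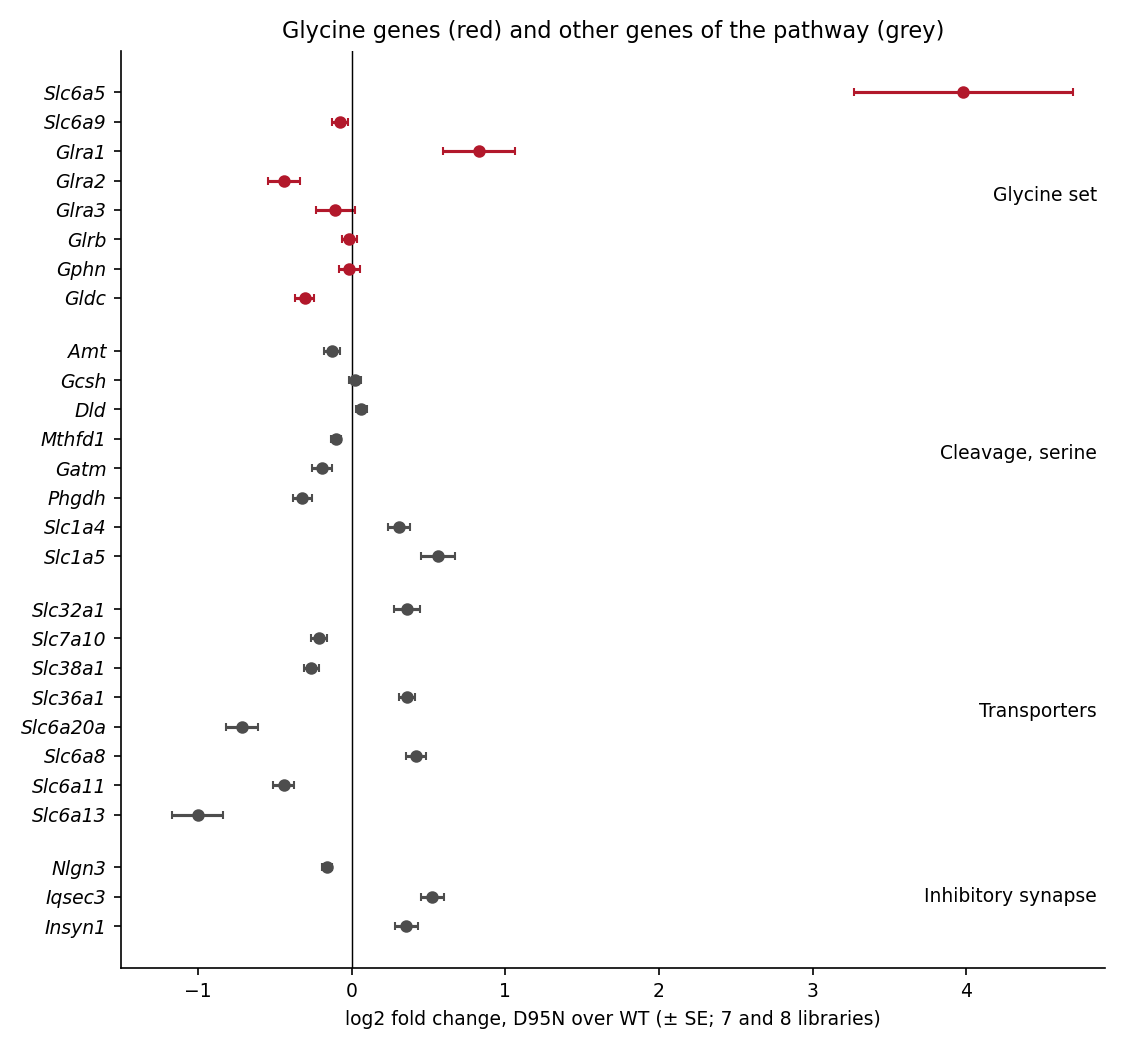
Log2 fold change of D95N over WT with its SE, from the edgeR fit over 7 D95N and 8 WT libraries, for the 8 glycine genes (red) and named genes of the pathway lists (grey). Slc6a5 stands at 3.98 ± 0.71, Glra1 at 0.83, Glra2 at -0.44 and Gldc at -0.31, and the pathway genes lie between -1.002 (Slc6a13) and 0.56 (Slc1a5).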

How the data were processed

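Per the labels' protocols, RNA came from frozen sections by Trizol extraction. Each library has 1 deposited table of whole-number counts by Ensembl gene, with no normalization seen in them. STAR, featureCounts and GRCm38 are named in the submitters' processing notes. Their versions, the annotation, the strand setting and the treatment of multi-mapping reads: not given in the sources used here. No label says more of how animals or libraries were grouped than genotype and animal number. Of 22524 identifiers 22291 matched GENCODE M21 and 233 did not.

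Counts were tested with edgeR 4.0.16 in R 4.3.3 (quasi-likelihood, TMM factors, default filter, genotype as the 1 term, Benjamini-Hochberg at 0.05 over 14989 genes). The SE was taken as |log2 fold change| / sqrt(F). CPM used TMM factors. Lengths are merged exons. Likeness used log2(CPM + 0.5). The test was checked on simulated counts. Alternatives were library totals, upper-quartile factors, DESeq2 1.42.0, no filter, each library left out in turn, and D95N 4 and D95N 44 left out together.

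The 8 genes and the lists were chosen with earlier results of these data known. The text names the 8, from each list at most 4 called genes in order of p (the 2 most abundant where no gene was called), and the 5 genes closest to Slc6a5 over 15 and over 7 libraries. Some genes so chosen are not reported here, and Glra4, Amt, Gcsh and Dld were named outside it. Slc6a16 and Insyn2a matched no row and were not analysed here.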

Additional observations from a re-analysis of the deposited data

Results flagged for a closer look

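The ratio of Glra1 to Glra2 reads in D95N 4 was 1.01, far from the next D95N library at 0.4725, a gap large for the range of the 7. It was the only one of 30 groups of values looked at, 15 measures in each genotype, to stand apart so far. Chance would give about 1 in 20 such groups if the values were independent and normally distributed, which was not tested. So 1 flagged group of 30 is not read as beyond chance. Several of the measures share genes and are not independent. D95N 4 had the highest Glra1, at 11.9 CPM, and the lowest Glra2, at 11.8 CPM, of the D95N libraries, and also the highest Slc6a5 and Gphn.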

How the results depend on the processing

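The 8 genes kept 2 higher and 2 lower under library totals, upper-quartile factors, DESeq2, no filter and each library left out in turn. Without D95N 4 and D95N 44 together 1 was higher, as Glra1 lost its call (log2 fold change 0.45), and 1150 genes were lower over the whole table. Fewer libraries entered that fit, and no other cause was tested. With single libraries left out, genes higher numbered 1952 to 2694 and genes lower 1305 to 2282, and pathway genes higher 9 to 13 and lower 13 to 21. The log2 fold change then ran from 3.27 to 4.18 for Slc6a5, 0.57 to 0.93 for Glra1, -0.53 to -0.38 for Glra2 and -0.35 to -0.28 for Gldc. Uncalled values near 0 changed sign. In the single-library settings Glrb ran from -0.038 to 0.027, Gphn from -0.078 to 0.027 (0.015 without D95N 41), Slc18a3 from -0.23 to 0.046, and Mocs2 from -0.011 to 0.027 (-0.0090 without D95N 44, -0.00013 without WT 32), where Mocs2 had 0.0055 with all libraries. Mocs2 was at -0.028 under library totals, -0.018 under upper-quartile factors and -0.015 without D95N 4 and D95N 44. Gcsh was at -0.012 under library totals and -0.0018 under upper-quartile factors. Amt passed as lower under both of these and without D95N 41 or 42. Glra4 lost its call in 5 of the 9 single-library settings in which it was tested, with log2 fold changes of -1.18 to -0.82 over the 9. No analysis paired by litter was possible because the labels name no litter. The Hox sums rest on 2 to 106 reads a library, so counting error limits them.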

Other observations

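Gephyrin is also an enzyme of molybdenum cofactor synthesis, and the 6 other genes of that cofactor and its enzymes showed no call by edgeR or DESeq2, with 1 higher and 1 lower at an unadjusted p under 0.05. Mocs2, the most abundant, stood at 45.6 ± 2.58 CPM in D95N and 45.4 ± 0.991 CPM in WT. Xdh, a user of the cofactor, stood at 18.7 ± 5.50 CPM in D95N and 21.1 ± 3.69 CPM in WT.

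Among the 7 D95N libraries alone the gene most like Slc6a5 was Cyp51, an enzyme of cholesterol synthesis, with Pearson r = 0.99 and Spearman rho = 1.0 over the 7, and r = 0.96 over the 5 without D95N 4 and D95N 44. It stood at 92.5 and 85.4 CPM in D95N 4 and D95N 44, with a median of 68.2 CPM in the other D95N libraries and a mean of 66.6 CPM in WT. The next were Lca5l, 2510009E07Rik, Chid1 and 2210016F16Rik, at r = 0.94 to 0.95 over the 7, and at 0.45 (Chid1) to 0.89 over the 5. With 13819 genes ranked over 7 libraries, high values of this kind are a description and were not tested.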
